A study of Mus musculus with 4 samples.

Results

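Ociad1, the gene also called asrij, was examined together with 9 genes that lie near it on mouse chromosome 5. The members were the rows of the deposited count tables whose symbol was Ociad1, Ociad2, Fryl, Zar1, Slain2, Tec, Txk, Cwh43, Dcun1d4 or Sgcb. All 10 symbols were found among 49993 genes with a count, and 9 of them passed the filter on low counts, Zar1 being the exception. The rule used symbols and no measured value. RNA was sequenced from CD11b+ microglia, the immune cells resident in the brain, sorted with magnetic beads from brains of 10-month-old mice. Every mouse carried APP/PS1, a transgene model in which amyloid builds up in the brain, so that no group without the disease model was compared. The group labelled AD (genotype APP/PS1+ asrij+/+, 2 libraries) had the gene intact, and in the group labelled AD/KO (APP/PS1+ asrij-/-, 2 libraries) it was deleted constitutively rather than in microglia alone. The labels do not state which exons the deleted allele lacks, which promoters drive the transgenes, or whether a library came from 1 mouse or from pooled mice.

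Ociad1 encodes a membrane protein with an OCIA domain that is found on endosomes and in mitochondria. The protein is known for holding blood stem cells in a quiescent state and for acting on JAK-STAT signalling from endosomes, and it takes part in the assembly of respiratory complex III. A gene deleted in the germ line is passed on together with the stretch of chromosome around it, so the genes beside it are commonly looked at when a knockout is checked.

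On the GRCm38.p6 assembly (RefSeq, to which mm10 of the submitters' processing notes corresponds), the 10 members are protein-coding genes that span 1.07 Mb of chromosome 5, from 72577113 to 73647737. Ociad1 (gene ID 68095, 73292769 to 73314077, plus strand) covers 21.3 kb. Its paralogue Ociad2 (gene ID 433904, 73322198 to 73338947, minus strand) begins 8.12 kb beyond it and is read toward it from the other strand. On the side of lower coordinates, Fryl (gene ID 72313, 73020191 to 73256699, minus strand) ends 36.1 kb before Ociad1, followed at increasing distance by Slain2, Tec, Txk and Zar1. On the other side lie Cwh43, Dcun1d4 and Sgcb. RefSeq promoter windows, which run from 250 bases before to 50 bases after a gene's start, were matched for all 10 members.

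The windows of 4 members are shown because they set 2 related pairs beside each other: the OCIA-domain genes Ociad1 and Ociad2, and the kinase genes Tec and Txk. Letters run 5′ to 3′ on the gene's own strand, and capitals mark each CG dinucleotide.
Ociad1, chr5:73292544-73292843, plus strand: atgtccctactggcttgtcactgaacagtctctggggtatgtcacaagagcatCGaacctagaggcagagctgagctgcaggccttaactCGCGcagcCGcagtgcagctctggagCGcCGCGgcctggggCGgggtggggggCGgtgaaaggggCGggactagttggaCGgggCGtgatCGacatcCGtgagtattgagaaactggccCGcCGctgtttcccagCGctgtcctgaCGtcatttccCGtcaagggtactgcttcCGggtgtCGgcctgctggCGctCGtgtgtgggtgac
Ociad2, chr5:73338898-73339197, minus strand: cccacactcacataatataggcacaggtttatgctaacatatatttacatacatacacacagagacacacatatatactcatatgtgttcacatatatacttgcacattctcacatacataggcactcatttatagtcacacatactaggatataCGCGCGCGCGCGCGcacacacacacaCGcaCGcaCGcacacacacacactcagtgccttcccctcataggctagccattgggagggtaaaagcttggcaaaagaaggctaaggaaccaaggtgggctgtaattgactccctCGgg
Tec, chr5:72868399-72868698, minus strand: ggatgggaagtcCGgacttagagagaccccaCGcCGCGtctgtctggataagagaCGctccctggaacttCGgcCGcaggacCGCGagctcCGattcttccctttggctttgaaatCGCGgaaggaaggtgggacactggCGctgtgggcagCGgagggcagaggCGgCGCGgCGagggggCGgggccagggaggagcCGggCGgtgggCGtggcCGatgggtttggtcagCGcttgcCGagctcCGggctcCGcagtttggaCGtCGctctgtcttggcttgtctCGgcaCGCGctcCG
Txk, chr5:72752728-72753027, minus strand: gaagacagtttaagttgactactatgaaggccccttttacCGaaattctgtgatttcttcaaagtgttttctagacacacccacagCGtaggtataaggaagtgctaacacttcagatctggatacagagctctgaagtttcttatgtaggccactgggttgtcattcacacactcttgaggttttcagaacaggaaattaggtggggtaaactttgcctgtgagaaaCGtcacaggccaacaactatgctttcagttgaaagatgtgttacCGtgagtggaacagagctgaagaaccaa

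The Ociad1 window holds 23 CG dinucleotides and that of Ociad2 holds 11, where the median over 32851 promoter windows of this length is 7. Most of those in the Ociad2 window lie in a single run of CG and CA repeats. The share of G and C bases is 63.0% in the Ociad1 window and 46.0% in that of Ociad2. Tec has 33 CG dinucleotides and Txk has 4. Short motifs were searched on both strands, with overlapping matches counted. The motif GGGCGG, the core of a GC box, occurs 3 times in the Ociad1 window, is absent from those of Ociad2 and Txk, and is held by 35.7% of all windows. The TATA motif TATAAA occurs once in the Ociad2 window and not in that of Ociad1, and 13.6% of all windows hold it. CCAAT occurs once in the Ociad2 window, with a share of 37.4% over all windows. The 2 related pairs therefore differ in the make-up of their promoters as well as in their levels, which are given below in CPM (read counts scaled to library size with TMM, edgeR's correction for library composition).

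The libraries held from 13102622 to 19810076 counts. The defining markers of microglia were present in all 4 (13 of 13 genes detected in each), with a summed level from 13510 to 19959 CPM in AD and from 5903 to 19854 CPM in AD/KO. Markers of neurons and astrocytes (22 of 22 detected in each library) summed to 2340 and 5920 CPM in AD and to 5809 and 15392 CPM in AD/KO. In 12 of the 22 both AD/KO libraries lay above both AD libraries, where 20.3% of all genes tested did so. These were 9 of the 10 astrocyte markers and 3 of the 12 neuron markers. Markers of oligodendrocytes, the myelin-forming cells (8 of 8 detected), summed to 1631 and 2604 CPM in AD and to 3900 and 8511 CPM in AD/KO. AD/KO replicate 2 therefore stood apart by its low microglial and high neuron and astrocyte level. AD replicate 2 stood apart by its neutrophil markers (9 of 9 detected, 4850 CPM summed, against 349 to 560 CPM in the others) and by 1391 reads of Xist, an RNA of the inactive X chromosome of females, against 3 to 15 reads. The labels give no sequencing batch, and nothing says that the libraries came from separate animals, so the p-values measure the spread between libraries alone.

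The deleted gene comes first, since it checks the labels. Ociad1 was still read in both AD/KO libraries, at a level below that of the AD libraries. It had 691 reads (50.1 CPM) in AD replicate 1 and 1032 reads (63.3 CPM) in AD replicate 2. The AD/KO libraries had 746 reads (38.8 CPM) in replicate 1 and 592 reads (32.1 CPM) in replicate 2. Both AD/KO libraries thus lay below both AD libraries, and the exact 95% Poisson intervals of the 4 values did not overlap each other: 46.4 to 54.0, 59.5 to 67.3, 36.1 to 41.7 and 29.5 to 34.7 CPM in the order above. These intervals cover counting error only and leave out the spread between libraries: those of the 2 libraries of a label did not overlap either. The reads carry no molecular identifiers, so reads copied from 1 molecule could not be told apart. The highest of the 4 libraries was AD replicate 2, and the lowest was AD/KO replicate 2.

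Taken 1 library against 1 library, Ociad1 in AD/KO was from 50.6% (AD/KO replicate 2 against AD replicate 2) to 77.5% (AD/KO replicate 1 against AD replicate 1) of its level in AD. The AD mean was 56.7 ± 9.35 CPM and the AD/KO mean 35.4 ± 4.79 CPM (SD, n = 2 each). The fitted log2 fold change was −0.68 (SE 0.29), with a 95% interval from −1.44 to 0.08. Put as a share, the fit placed AD/KO at 62.5% of AD, with an interval from 36.9% to 106%. The difference did not pass the threshold (unadjusted p = 0.0702, adjusted p = 0.680, edgeR quasi-likelihood test with Benjamini-Hochberg adjustment over 21439 genes). Leaving out AD replicate 2 gave −0.43, and leaving out AD/KO replicate 2 gave −0.54.

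Because the targeted gene kept reads, AD and AD/KO name libraries as labelled throughout, and each direction is a difference between labels. Counts summed over a whole gene do not show which exons the reads fell in, and part of a gene can still be transcribed when other exons are deleted. GENCODE M21 lists 10 transcripts of Ociad1. The longest Ociad1 transcript was searched against all GENCODE transcripts for matches of 100 bases or more with 95% identity or higher. It matched 1 other gene, Gm42733, which lies within Ociad1 on the opposite strand (519 bases). Gm42733 has no row of its own in the tables used here. No near-identical copy of Ociad1 at another locus was found by that search.

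**Figure D1:**
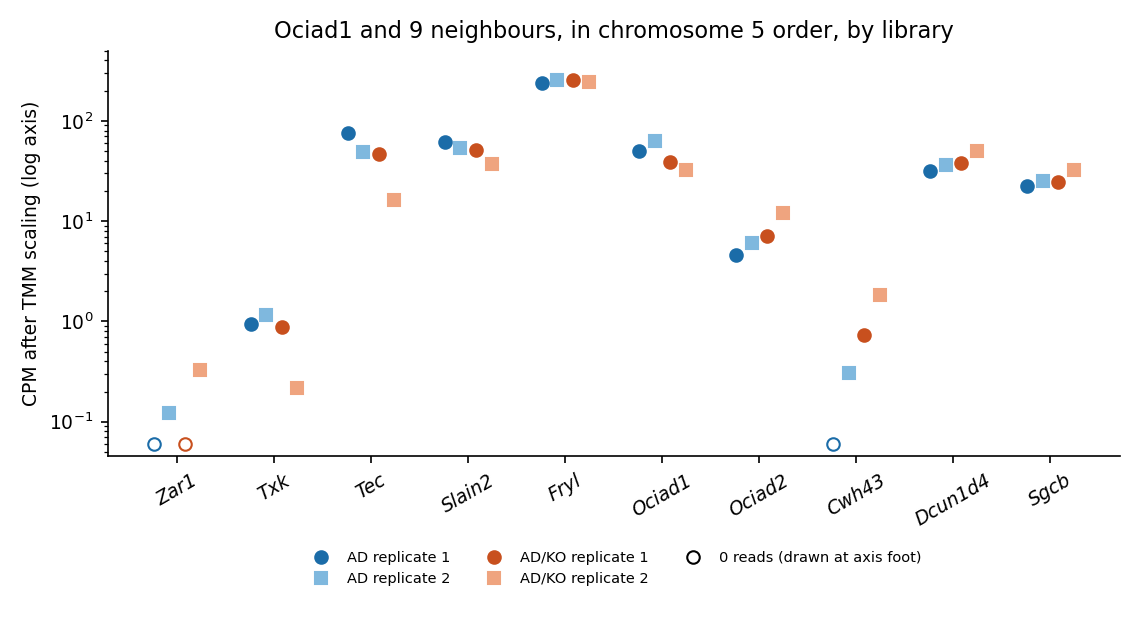
Level of each member (CPM after TMM scaling, log axis) in the 4 libraries, with the genes in chromosome order. Blue points are AD, orange points AD/KO, and open points at the foot mark 0 reads. Both Ociad1 points of AD/KO (38.8 and 32.1 CPM) lie below both of AD (50.1 and 63.3 CPM), while the 4 points of Fryl lie between 237 and 254 CPM.

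The question put to the 9 other members was whether genes beside the deleted gene also differed between the labels. Counts out of 9 below are of the members tested, which include Ociad1 and leave out Zar1. None was called: edgeR's quasi-likelihood test put 0 of the 9 tested members past the adjusted threshold of 0.05, as over all genes (0 of 21439, 0%). Unadjusted p-values were under 0.05 in 0 of the 9, and over all genes tested in 2.70% that were higher and 2.30% that were lower. DESeq2 called 0 of the 7 members to which it gave an adjusted p (not Zar1, Txk or Cwh43), against 0.462% of 19705 genes. With the replicate numbers as a block, 1 of the 9 was called, Tec (lower), where 6.79% of all genes were called lower and 13.4% higher. That fit spends 3 coefficients on 4 libraries. In 3 of the 9 (Ociad2, Cwh43 and Dcun1d4) both AD/KO libraries lay above both AD libraries, where 20.3% of all genes tested did so. In 4 of the 9 (Ociad1, Slain2, Tec and Txk) they lay below, where 21.6% of all genes did so. Without Ociad1, 3 of the 8 other members tested lay above (37.5%) and 3 below (37.5%). The median log2 fold change of the 8 other members tested was 0.14, beside −0.05 over all genes tested.

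Ociad2 carries the same kind of OCIA domain as Ociad1 and is likewise found in mitochondria and endosomes. Its reads numbered 64 and 98 in the AD libraries and 136 and 224 in the AD/KO libraries, or 4.64, 6.01, 7.08 and 12.1 CPM. The groups did not overlap, but AD/KO replicate 1 lay nearer to AD replicate 2 than to AD/KO replicate 2. The log2 fold change was 0.85 (SE 0.47, 95% interval −0.37 to 2.07, adjusted p = 0.680, edgeR quasi-likelihood test with Benjamini-Hochberg adjustment). Leaving out AD/KO replicate 2 gave 0.42. The level of the paralogue thus ran in the opposite direction to that of Ociad1, so that the log2 ratio of Ociad1 reads to Ociad2 reads was 3.43 and 3.40 in AD against 2.46 and 1.40 in AD/KO. With 2 libraries against 2, the exact two-sided permutation test of that ratio gave p = 0.333, the smallest p this design allows. Ociad2 also shares stretches of 105 to 132 bases at over 95% identity with 3 other transcripts (Phip, Rrp15 and Tango2), and how reads matching several places were counted is not given in the sources used here.

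Markers of neurons and astrocytes moved with Ociad2 in these libraries. The summed level of the 22 markers, 2340, 5920, 5809 and 15392 CPM in the order of the labels, was lowest in AD replicate 1 and highest in AD/KO replicate 2, as was Ociad2. With the level of those markers as a covariate, the log2 fold change of Ociad2 was 0.26. The part of other brain cells in the Ociad2 difference was not tested beyond that fit, which spends 3 coefficients on 4 libraries. In bulk RNA, fewer cells of a type and less RNA per cell cannot be told apart.

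Fryl, on the other side of Ociad1, is the large relative of the fly gene furry, which shapes cell outgrowths. It was the most abundant member in CPM and the least variable. The libraries gave 237 and 253 CPM in AD and 254 and 244 CPM in AD/KO, and the groups overlapped. The log2 fold change was 0.02 (SE 0.32), with a 95% interval from −0.81 to 0.86. The interval allows AD/KO a level from 56.9% to 182% of AD, so it does not show that the levels were equal. The long non-coding gene 1700071G01Rik lies within Fryl, with 1 to 17 reads in a library.

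Slain2 encodes a protein of growing microtubule ends. Its level was 61.4 and 53.9 CPM in AD and 51.4 and 37.1 CPM in AD/KO. The groups did not overlap, yet AD/KO replicate 1 was within the counting error of AD replicate 2 (48.3 to 54.7 against 50.4 to 57.6 CPM). The log2 fold change was −0.38 (SE 0.30), and it was −0.15 without AD/KO replicate 2.

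Tec and Txk are neighbouring genes of the Tec family of tyrosine kinases, which act below antigen and growth factor receptors in blood cells. Tec was at 75.9 and 49.1 CPM in AD and at 47.2 and 16.4 CPM in AD/KO. AD/KO replicate 2 was by far the lowest library, and the other AD/KO library differed from AD replicate 2 by less than their counting error. The log2 fold change was −0.98 (SE 0.58, adjusted p = 0.680, edgeR quasi-likelihood test with Benjamini-Hochberg adjustment). It was −0.39 without AD/KO replicate 2 and −1.88 without AD/KO replicate 1. Beside this, the 13 microglial markers summed to 19959, 13510, 19854 and 5903 CPM, lowest in the same library. With the neuron and astrocyte level as a covariate, the Tec difference was −0.12. That fit does not use the microglial markers. Scaled to 12 homeostatic microglial genes instead, Tec was at −0.44, where the median of all genes was 0.85. The part of the microglial level in the Tec difference was not tested.

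Txk, known from T cells, had few reads: 13 and 19 in AD, 17 and 4 in AD/KO. The libraries stood at 0.942, 1.17, 0.885 and 0.217 CPM, and the log2 fold change of −0.93 (SE 0.87) rested on AD/KO replicate 2, without which it was −0.24. T and NK cell markers were near 0 in every library: 3 of 9 were detected in all 4, Trac was at 0 in all, and the list summed to 1.45 and 4.85 CPM in AD and to 2.13 and 1.95 CPM in AD/KO. Txk transcripts also share stretches of over 100 bases with many other genes.

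Other members of the Tec family were set beside this pair. Btk, the kinase of B cells and myeloid cells, was at 104 and 59.4 CPM in AD and 65.4 and 21.0 CPM in AD/KO (log2 fold change −0.92, SE 0.63, and −0.31 without AD/KO replicate 2). Bmx was at 2.32 and 8.71 CPM in AD and 0.729 and 2.76 CPM in AD/KO (−1.66, SE 0.97), with its highest value in the library of high neutrophil level, AD replicate 2. Without that library the value was −0.35, and without AD/KO replicate 2 it was −2.90. Of the 4 family genes tested, 4 had a negative log2 fold change, as did 11314 of all 21439 genes tested. In the family 0 passed the threshold (edgeR's quasi-likelihood test, 0 also before adjustment, and 0 of the 3 with an adjusted p from DESeq2). With the replicate numbers as a block 3 of the 4 were called lower (Tec, Btk and Bmx), where 6.79% of all genes were called lower and 13.4% higher. With the covariate the value of Btk was 0.07, and in that fit its direction turned, while Bmx was at −3.46.

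Cwh43, a gene of lipid remodelling of GPI anchors, had 0 and 5 reads in AD and 14 and 34 reads in AD/KO. A count of 0 in AD replicate 1 allows up to 0.267 CPM by the exact 95% Poisson interval, and AD/KO replicate 2 stood at 1.84 CPM. The fitted log2 fold change of 2.94 (SE 1.29, 95% interval −0.40 to 6.29) depends on how the value of 0 is treated. It was 7.48 without AD replicate 2, where the only remaining AD library had no read, 2.02 without AD replicate 1 and 2.15 without AD/KO replicate 2. With the neuron and astrocyte covariate it was 1.46. The difference did not pass the threshold (adjusted p = 0.680, edgeR quasi-likelihood test with Benjamini-Hochberg adjustment).

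Dcun1d4 belongs to the family that helps to attach NEDD8 to cullins. Its level was 31.6 and 36.1 CPM in AD and 37.9 and 49.7 CPM in AD/KO, and the log2 fold change was 0.37 (SE 0.30). Sgcb, beta-sarcoglycan of the dystrophin complex, was at 22.3 and 25.0 CPM in AD and at 24.3 and 32.1 CPM in AD/KO, with groups that overlapped, and the log2 fold change was 0.25 (SE 0.31). In both genes AD/KO replicate 2 was the highest library and AD/KO replicate 1 was within counting error of AD replicate 2. Without AD/KO replicate 2 the values were 0.17 for Dcun1d4 and 0.05 for Sgcb. With the neuron and astrocyte covariate they were 0.09 for Dcun1d4 and −0.02 for Sgcb, so that the direction of Sgcb turned in that fit.

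Zar1, a gene of oocytes and early embryos, was all but unread. It had 0 and 2 reads in AD and 0 and 6 reads in AD/KO, where 3 reads correspond to 0.156 to 0.217 CPM. Of 4 oocyte markers, 1 was detected in every library and Bmp15 in none. Its transcript also matches Gm42668, a transcript annotated between Slain2 and Fryl, at 96.4% identity over 2497 bases, which makes so small a count uncertain. No difference was detectable at this depth.

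**Figure D2:**
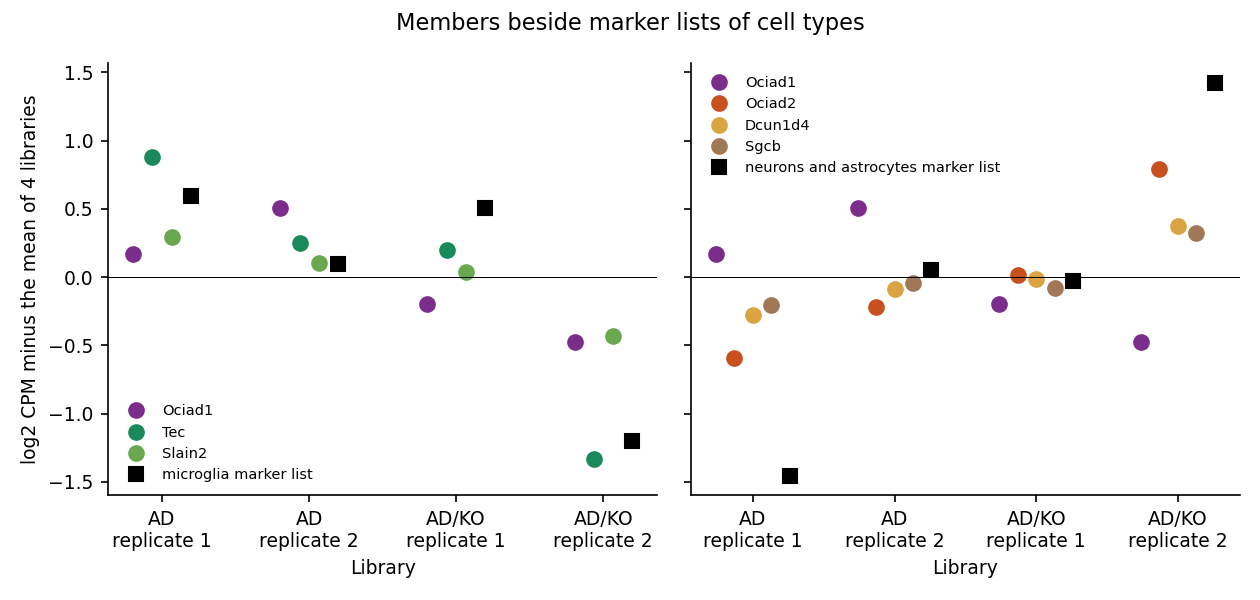
Level of members (circles) and mean level of marker lists (black squares) in each library, as log2 CPM minus the mean of the 4 libraries. Tec is lowest in AD/KO replicate 2 together with the microglial list (left), and Ociad2, Dcun1d4 and Sgcb are highest there together with the neuron and astrocyte list (right). Ociad1 is highest in AD replicate 2, at 63.3 CPM.

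AD replicate 2 and AD/KO replicate 1 had close levels of neuron and astrocyte markers (5920 and 5809 CPM summed), which allows the members to be read across the labels in libraries that differ little in this respect. The pair was picked after those levels were seen, and it has 1 library a label and so no test. Ociad1 was at 61.3% in the AD/KO library, with an exact 95% interval from counting error of 55.8% to 67.5%. Fryl was at 100%, with an interval from 96.3% to 105%. Tec was at 96.2%, Slain2 at 95.4%, Sgcb at 97.4% and Dcun1d4 at 105%. Ociad2 was at 118% (interval 90.2% to 154%). All of these but Ociad1, and also the sparse Txk and Cwh43, had an interval that included 100%. The share of all genes with such an interval was not worked out, so this is no result about the members. These intervals also leave out the spread between libraries. Over genes, chi-square per degree of freedom was 47.8 between these 2 libraries and 81.2 between the 2 AD libraries. Among 11303 genes at a mean of at least 10 CPM, 5.54% had a lower ratio than Ociad1 between these 2 libraries. In the fit on all 4 libraries, 17.6% of the 21439 genes tested, whatever their level, had a lower log2 fold change than Ociad1. The 2 libraries still differed in neutrophil markers (4850 against 503 CPM), in microglial markers (13510 against 19854 CPM), in oligodendrocyte markers (2604 against 3900 CPM) and in Xist, and the part of these in the Ociad1 value was not tested.

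**Figure D3:**
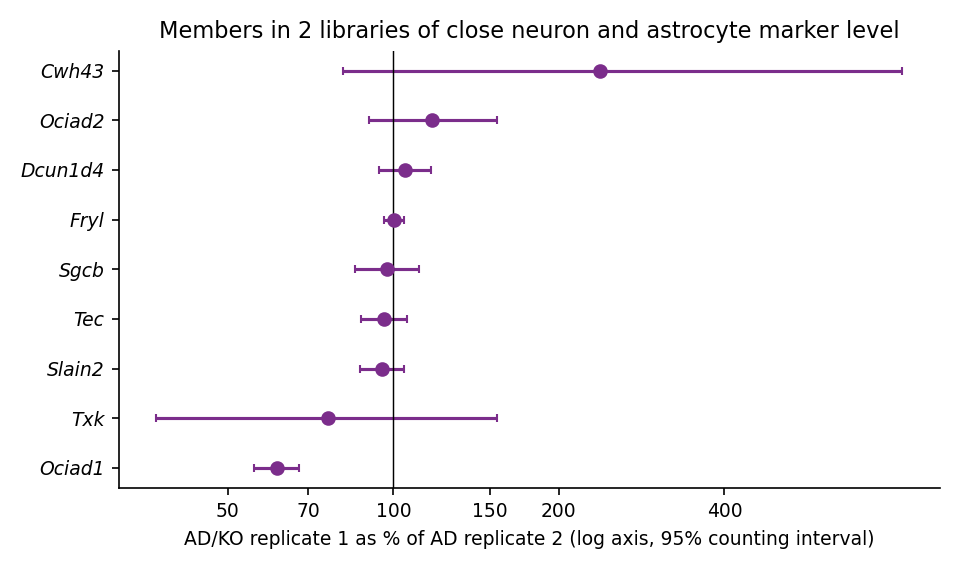
Level of each member in AD/KO replicate 1 as a percentage of AD replicate 2 (log axis), with exact 95% intervals that cover counting error alone. Ociad1 is at 61.3%, and the intervals of the 8 other members shown include 100%; Zar1 had too few reads to be drawn.

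A ratio within a library does not depend on how libraries are scaled. Per 1000 reads of the 9 other members together, Ociad1 had 115 and 149 reads in AD and 91.6 and 81.4 reads in AD/KO. The groups did not overlap. On the log2 scale the ratio averaged −2.93 ± 0.26 in AD and −3.53 ± 0.12 in AD/KO (SD, n = 2 each), a difference of −0.60. The exact two-sided permutation test gave p = 0.333, the smallest that 2 libraries against 2 allow. With Fryl and Slain2 alone below the line, most of whose reads were of Fryl, the difference was −0.63. Against Slain2 alone it was −0.28, and the groups overlapped. Against Tec and against Txk it had the other sign (0.46 and 0.58), also with overlap.

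Levels of different genes can be set in order only per length. Per kb of exon sequence (the union of GENCODE exons), Tec at 16.7 ± 5.08 CPM per kb and Fryl at 16.1 ± 0.758 led in AD (SD, n = 2 each), and their spreads overlapped. Ociad1 came next, at 10.3 ± 1.70 CPM per kb, followed by Slain2 at 6.83 ± 0.625, with Sgcb and Dcun1d4 at 5.84 and 5.83. Ociad2 was at 1.96 ± 0.357, and Txk, Cwh43 and Zar1 were below 0.1. In AD/KO, Fryl led at 16.4 ± 0.476 CPM per kb, and Ociad1 at 6.43 ± 0.869 came after Tec, Dcun1d4 and Sgcb. Those 4 and Slain2 lay within their spreads of each other there. Among protein-coding genes with at least 1 read, Ociad1 stood at the percentiles 71.7 and 77.4 in AD and 63.8 and 57.4 in AD/KO of level per kb, so it remained a gene of middle to high level in every library.

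Within 1 Mb of Ociad1 lie 41 other annotated genes, the 9 other members among them, and 17 of the 41 passed the filter. None was called (0 of 17 with edgeR's quasi-likelihood test, 0 before adjustment, 0 of 14 with DESeq2). With the replicate block 2 were (Tec and Nfxl1, both lower), where 6.79% of all genes were called lower and 13.4% higher. The median log2 fold change of the 17 was −0.24, beside −0.17 for the 59 genes tested within 5 Mb, −0.03 for the 1315 on the rest of chromosome 5 and −0.05 for all genes. The groups did not overlap in 3 genes that were higher and in 7 that were lower, or 17.6% and 41.2% of the 17, beside 20.3% and 21.6% of all genes tested and 19.3% and 20.7% on the rest of chromosome 5. The most abundant non-members there were Nfxl1, Usp46 and Gm52817. Nfxl1 was at 63.3 and 40.8 CPM in AD and 41.2 and 27.3 CPM in AD/KO, for which the log2 fold change was −0.60 (SE 0.38). Usp46, a deubiquitinase gene, was at 25.4 and 36.7 CPM in AD and 32.4 and 61.7 CPM in AD/KO (log2 fold change 0.60, SE 0.43), and the long non-coding Gm52817 at 7.97 and 10.0 CPM against 7.29 and 4.12 CPM (−0.66, SE 0.48). Without AD/KO replicate 2 these were −0.33 for Nfxl1, 0.07 for Usp46 and −0.29 for Gm52817. With the neuron and astrocyte covariate Nfxl1 was at −0.02 and Usp46 at −0.14. The median of so few genes moved with the filter: it was 0.35 with no filter on low counts and −0.10 with genes of at least 1 CPM.

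**Figure D4:**
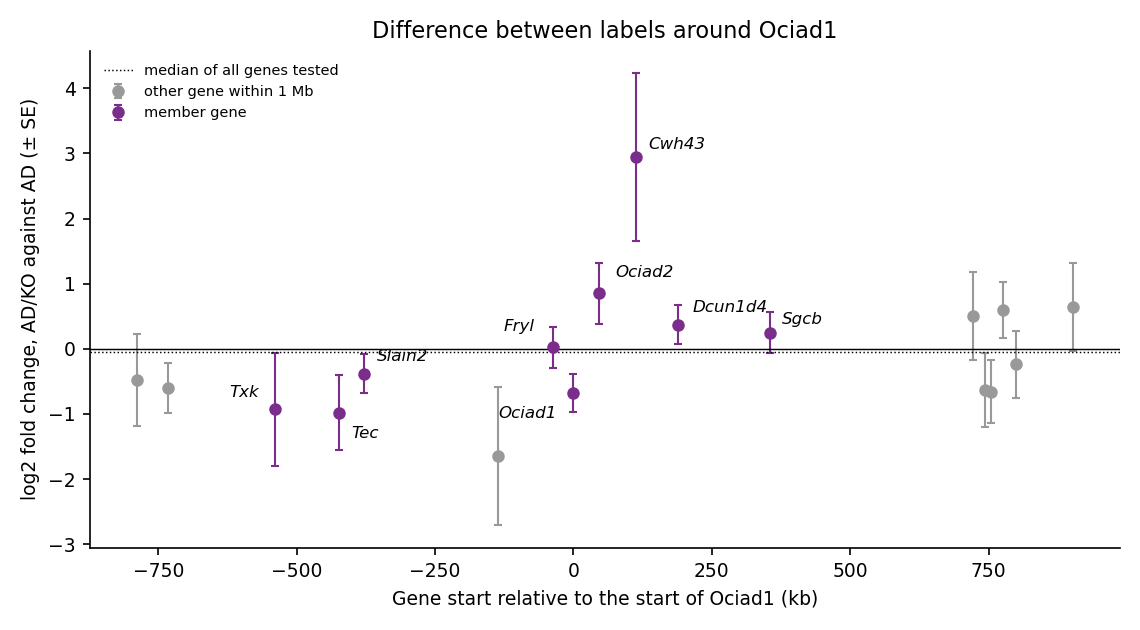
Log2 fold change (AD/KO against AD, ± SE) of the genes tested within 1 Mb, by the distance of their start from that of Ociad1 (Usp46os1, with no strand given, by its lower end). Members are purple, other genes grey, and the dotted line is the median of all genes tested (−0.05). Ociad1 at −0.68 lies between Fryl at 0.02 and Ociad2 at 0.85.

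Genes known to act with Asrij were taken as a list of 12: Arf1 of vesicle transport, Stat3, Jak1, Notch1, the signalosome subunit Cops5, Trp53 and its regulator Mdm2, the prohibitins Phb and Phb2, and Bcs1l, Uqcrfs1 and Cyc1 of complex III. All 12 were tested and 0 were called (edgeR's quasi-likelihood test, 0 before adjustment, 0 with DESeq2). With the replicate block 1 was (Cyc1, higher), where 13.4% of all genes were called higher and 6.79% lower. The median log2 fold change was −0.07, beside −0.05 for all genes, with 4 higher and 8 lower. Stat3 was at 147 and 133 CPM in AD and 115 and 83.0 CPM in AD/KO (log2 fold change −0.50, SE 0.32). Mdm2 was at 94.1 and 83.0 CPM in AD and 74.0 and 51.4 CPM in AD/KO (−0.50, SE 0.32). Cyc1, cytochrome c1, was at 29.5 and 33.2 CPM in AD and 42.0 and 55.3 CPM in AD/KO (0.63, SE 0.30), the largest value of the list in either direction. Uqcrfs1, the Rieske protein, had 0.45 (SE 0.34). In these 4 genes the groups did not overlap. Without AD/KO replicate 2 the values were −0.27 for Stat3, −0.25 for Mdm2, 0.43 for Cyc1 and 0.19 for Uqcrfs1.

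The remaining partners had smaller values. Cops5 was at 20.4 and 19.6 CPM in AD and 18.7 and 17.7 CPM in AD/KO (−0.14, SE 0.29), with groups that did not overlap. Phb and Phb2, at 0.20 (SE 0.30) and 0.14 (SE 0.27), were also without overlap. Over the list the groups did not overlap in 4 genes that were higher and 3 that were lower, or 33.3% and 25.0%, beside 20.3% and 21.6% of all genes tested. The groups overlapped in Arf1 (−0.12), Jak1 (−0.27), Notch1 (−0.02), Trp53 (−0.37) and Bcs1l (−0.02). For each of these 12 genes the 95% interval of the log2 fold change included 0, and none of the intervals was narrower than that of Phb2, from −0.55 to 0.84. Directions of the 8 lower genes turned when the libraries were scaled to homeostatic microglial genes, which raised the median of all genes by 0.89.

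The genes whose profile over the 4 libraries was nearest to that of Ociad1 were found by the root mean square distance of log2 CPM centred on each gene's mean, among 11302 genes at a mean of at least 10 CPM. They were Cdc25a, a phosphatase of the cell cycle, at a distance of 0.0555, then Cd63, a tetraspanin of late endosomes, at 0.0630, Map3k20 at 0.0651, Csgalnact2 at 0.0783 and Dek, a chromatin protein, at 0.0806. The median distance was 0.478. Cd63 was at 101 and 121 CPM in AD and 71.3 and 65.7 CPM in AD/KO. With 4 libraries many genes can share a profile, and the nearness is a description of these libraries.

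**Figure D5:**
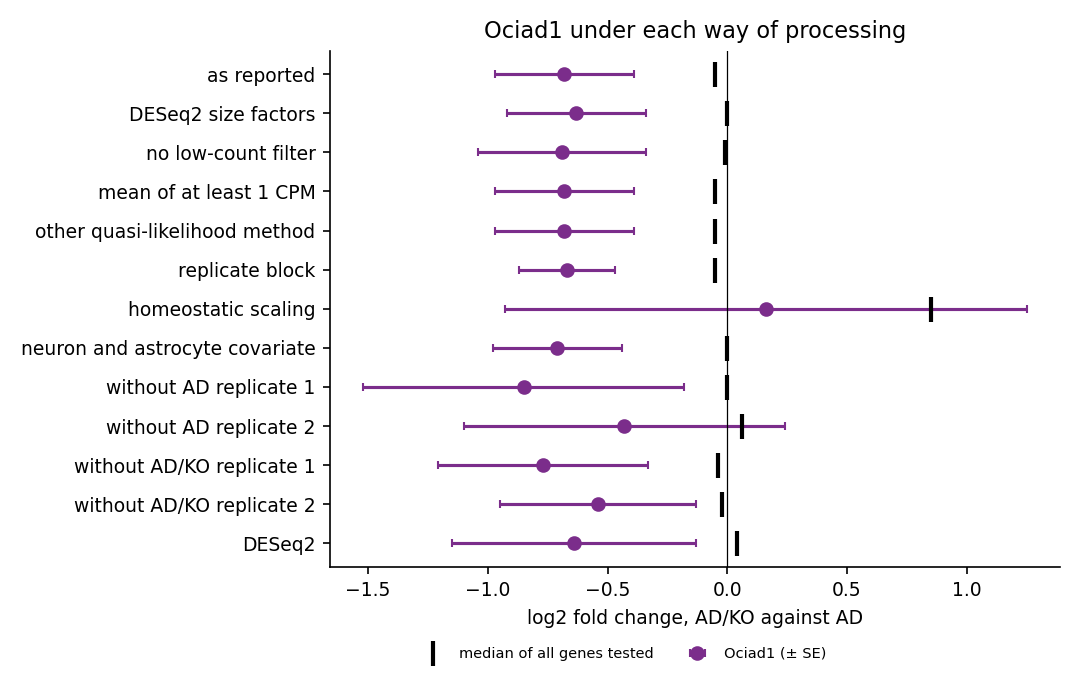
Log2 fold change of Ociad1 (purple, ± SE) and median of all genes tested (black bar) under each way of processing. Ociad1 lies between −0.85 and −0.43 in all but the scaling to homeostatic microglial genes, where it is at 0.16 and the median of all genes at 0.85.

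The value of Ociad1 was compared over the ways of processing. With the neuron and astrocyte level as a covariate it was −0.71, so it was not smaller in that fit, whereas the 8 other members tested were nearer to 0. Tec was at −0.12, Slain2 at −0.09, Txk at −0.46, Fryl at 0.00, Ociad2 at 0.26, Cwh43 at 1.46, Dcun1d4 at 0.09 and Sgcb at −0.02. The fit spends 3 coefficients on 4 libraries, and its covariate was highest in an AD/KO library. The 5 genes most like Ociad1 had like values in that fit: Cdc25a −0.62, Cd63 −0.76, Map3k20 −0.87, Csgalnact2 −0.89 and Dek −0.54. That follows from how they were picked, by their likeness to Ociad1 in these same libraries. Of all genes tested, 13.1% had a lower value than Ociad1 in that fit, so a value as low was not particular to Ociad1. Scaled to 12 homeostatic microglial genes, Ociad1 turned to 0.16 (SE 1.09), while the median of all genes rose to 0.85. Relative to that median it was at −0.69, beside −0.63 in the fit with TMM scaling. A change of scaling shifts nearly all genes alike, so the nearness of these values is no check of the Ociad1 difference.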

How the data were processed

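RNA-seq libraries of CD11b+ mouse microglia were analysed (2 AD, 2 AD/KO). The authors deposited raw read counts per gene symbol, 1 table per library, with no normalization. HISAT2 and featureCounts of Subread, with the build mm10, are named per the submitters' processing notes. Strand use, the handling of multiply matching reads and the annotation are not given in the sources used here. The tables each had 11 broken lines without a count, which were left out. All 49993 symbols matched RefSeq for GRCm38.p6. No 2 libraries were identical.

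AD/KO was compared with AD in edgeR 4.0.16 (R 4.3.3): filterByExpr (minimum count 10, minimum total 15), TMM scaling, and the quasi-likelihood F-test over all 4 libraries, two-sided, with Benjamini-Hochberg adjustment over 21439 genes at a threshold of 0.05. The standard error is the log2 fold change divided by the square root of F. Zar1 failed the filter. The procedure was tested on simulated data. CPM values use TMM-scaled library sizes. Exact Poisson and binomial intervals are at 95%. Near-identical transcripts were searched with BLAST 2.17.0 in GENCODE M21.

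Named genes were the members, the Asrij partner list, the Tec family (1 gene of which is not reported here), the 3 most abundant tested genes within 1 Mb and the 5 genes most like Ociad1. Members, lists, tests and alternatives were chosen with earlier results of these data known. Alternatives were DESeq2 1.42.0, DESeq2 size factors, other filters, edgeR's other quasi-likelihood method, a replicate block, scaling to homeostatic genes, a neuron and astrocyte covariate, and leaving out each library.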

Additional observations from a re-analysis of the deposited data

How the results depend on the processing

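The number of genes called was 0 by edgeR's quasi-likelihood test, 91 with DESeq2 and from 0 to 524 with 1 library left out, where the lone library of a label is assumed to vary like the others (48 without AD replicate 1, 524 without AD replicate 2); the cause was not tested. The replicate numbers are not said to mark a shared litter or day. Deviations of same-numbered libraries had a correlation of 0.66 across genes. This does not show that the libraries were paired. In both labels replicate 2 had the higher summed neuron and astrocyte markers (5920 against 2340 CPM in AD, 15392 against 5809 CPM in AD/KO). The part of that level in the correlation was not tested. With the replicate block 4333 genes were called, and 1 member, Tec (log2 fold change −1.13, adjusted p = 0.0177). Cyc1, Btk, Bmx, Nfxl1, Cd63, Map3k20 and Csgalnact2 were also called with it, and Ociad1 was not (−0.67, adjusted p = 0.0547, edgeR quasi-likelihood test with Benjamini-Hochberg adjustment).

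Over the alternatives the members gave 107 values, of which 102 had the direction and the call reported. Ociad1 ran from −0.85 to −0.43 with 1 library left out and Fryl from −0.03 to 0.14. The ratio of Ociad1 to the 9 other members ran from −0.79 to −0.42. Scaling to homeostatic genes, which raised the median of all genes by 0.89, turned Ociad1 (0.16), Slain2 (0.44), Arf1 (0.71), Stat3 (0.32), Jak1 (0.56), Notch1 (0.86), Cops5 (0.78), Trp53 (0.31), Mdm2 (0.30), Bcs1l (0.83), Nfxl1 (0.22), Gm52817 (0.01), Cdc25a (0.26), Cd63 (0.19), Map3k20 (0.02), Csgalnact2 (0.09) and Dek (0.30). The neuron and astrocyte covariate turned Sgcb (−0.02), Arf1 (0.03), Jak1 (0.07), Notch1 (0.21), Trp53 (0.33), Bcs1l (0.24), Btk (0.07) and Usp46 (−0.14). DESeq2 size factors turned Notch1 (0.02) and Bcs1l (0.02), as did DESeq2 (0.02 and 0.01). With 1 library left out, Arf1 ran from −0.27 to 0.07, Notch1 from −0.11 to 0.12, Trp53 from −0.93 to 0.07 and Bcs1l from −0.16 to 0.16.

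The median of genes within 1 Mb was −0.19 with DESeq2 size factors, 0.35 with no filter, −0.10 at a mean of at least 1 CPM, 0.72 with homeostatic scaling, −0.12 with the covariate, 0.42 with DESeq2 and from −0.15 to 0.26 with 1 library left out. The partner median, −0.07 as reported, was 0.80 with homeostatic scaling, 0.07 with the covariate and from −0.14 to 0.08 with 1 library left out.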

Other observations

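Some genes within 1 Mb of Ociad1 had too few reads to be tested. Gm34583, a long non-coding gene between Ociad2 and Cwh43, had 1 and 5 reads in AD and 9 and 49 reads in AD/KO, highest in the library with the highest neuron and astrocyte level. Slc10a4, between Slain2 and Fryl, had 4 and 6 reads in AD and 9 and 18 reads in AD/KO. Rasl11b, near the end of the window, passed the filter and had 32 and 117 reads in AD and 110 and 168 reads in AD/KO (log2 fold change 0.64, SE 0.68, with groups that overlapped). All 3 were picked with their values in view.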
